A study of Homo sapiens with 4 samples.

Results

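Genes of noncanonical WNT signalling through WNT5A and the ROR receptors were examined in a chromatin accessibility dataset of A375, an established human melanoma cell line. The 9 genes encode 3 ligands (WNT5A, WNT5B and WNT11), 3 receptors that carry kinase or kinase-like domains (ROR1, ROR2 and RYK) and 3 Frizzled receptors (FZD3, FZD5 and FZD7). Their regions were chosen by position alone: every accessible region that overlapped the RefSeq GRCh38 span of one of these genes, extended by 10 kb on both sides. This gave 76 of the 125986 regions listed. The assay, ATAC-seq, reads open chromatin through the places where a transposase, Tn5, can insert sequencing adapters. Cells were given octanoate, a fatty acid of medium chain length, at 1 mM or its vehicle isopropanol, both for 48 h in 100 mm plates, with 2 libraries in each group. Nothing in the labels says whether the 2 libraries of a group came from separate cultures, so the p-values may not cover the spread between cultures.

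Noncanonical WNT signalling acts without stabilised beta-catenin. WNT5A and its close relatives bind Frizzled receptors together with ROR1, ROR2 or RYK, and the signal passes through Dishevelled to small GTPases, the JNK kinases and calcium-dependent enzymes that shape cell polarity and movement. In melanoma, WNT5A and ROR2 are known for their association with an invasive, less differentiated cell state, and ROR1 with the more proliferative one.

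All values come from 1 deposited table of the comparison of octanoate with vehicle, which holds no value for a single library. It gives each region's mean normalized read count over the 4 libraries, a log2 fold change of octanoate over vehicle with its standard error (SE), and a p-value. Values for each group are therefore those implied by the mean and the fold change, with no error of their own. The labels' protocol gives a sequencing aim rather than counts, and the depth of each library is unknown here. The adjusted p-values could be recomputed for the 11185 regions whose mean reached 63.8, called tested regions from here on. All other regions are listed with an adjusted p of 1 and are taken here as not tested. Over the 11185 tested regions the median log2 fold change was 0.19, so a value near 0.19 is what an average tested region shows. As a check of the cell type, 2 of the 5 melanocyte-lineage markers with a listed start, MITF and DCT, had that start in an accessible region, and MLANA, TYR and TYRP1 did not. All 9 such markers had at least 1 region in their span, but so did 13 of 16 markers of other cell types, so a region in the span does not separate cell types. Of 3 markers of other cell types with a listed start, that of PDGFRB lay in a region and those of KRT5 and PTPRC did not.

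The RefSeq promoter table, which gives 300 bases from 250 before to 50 after a start, held 8 windows for 6 of the 9 genes. WNT11, FZD3 and FZD7 had no entry. Of these 8 starts, 6 lay inside an accessible region, against 64.8% of 22199 windows of protein-coding genes. The starts outside any region were both of WNT5B. The windows below are shown because they hold this contrast between the paralogous ligands WNT5A and WNT5B, and the starts of ROR1, ROR2 and FZD5. The windows of RYK and of the downstream WNT5A start are described below but not shown. Each is read 5' to 3' on the strand of the gene from GRCh38.p14. Capitals mark the GC box GGGCGG, the CCAAT box CCAAT and the TATA box TATAAA whichever strand holds them.
WNT5A, chr3:55487257-55487556, minus strand, in a region: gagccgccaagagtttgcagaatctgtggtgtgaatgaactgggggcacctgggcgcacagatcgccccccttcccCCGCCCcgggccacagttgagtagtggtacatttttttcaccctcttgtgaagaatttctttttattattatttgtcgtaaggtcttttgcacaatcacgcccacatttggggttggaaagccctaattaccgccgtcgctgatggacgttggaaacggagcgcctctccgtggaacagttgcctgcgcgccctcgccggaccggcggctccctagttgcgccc
WNT5B upstream start, chr12:1616806-1617105, plus strand, in no region: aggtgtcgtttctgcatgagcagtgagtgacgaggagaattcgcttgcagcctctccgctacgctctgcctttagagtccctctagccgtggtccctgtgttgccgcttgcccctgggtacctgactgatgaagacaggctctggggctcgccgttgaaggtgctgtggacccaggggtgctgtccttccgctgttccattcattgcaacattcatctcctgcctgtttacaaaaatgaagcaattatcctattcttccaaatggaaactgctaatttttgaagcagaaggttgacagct
WNT5B downstream start, chr12:1628981-1629280, plus strand, in no region: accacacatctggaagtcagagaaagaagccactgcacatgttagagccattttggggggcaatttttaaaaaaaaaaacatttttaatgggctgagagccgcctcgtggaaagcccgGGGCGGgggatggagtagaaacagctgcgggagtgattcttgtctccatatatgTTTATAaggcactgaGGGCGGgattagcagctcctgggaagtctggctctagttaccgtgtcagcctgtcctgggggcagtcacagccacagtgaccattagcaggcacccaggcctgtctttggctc
ROR1, chr1:63773767-63774066, plus strand, in a region: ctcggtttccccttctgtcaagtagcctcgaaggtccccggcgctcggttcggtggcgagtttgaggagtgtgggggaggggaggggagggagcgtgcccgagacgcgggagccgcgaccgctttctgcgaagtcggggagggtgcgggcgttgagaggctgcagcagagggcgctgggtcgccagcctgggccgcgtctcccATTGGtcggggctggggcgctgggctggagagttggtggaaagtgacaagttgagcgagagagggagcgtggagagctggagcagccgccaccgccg
ROR2, chr9:91950179-91950478, minus strand, in a region: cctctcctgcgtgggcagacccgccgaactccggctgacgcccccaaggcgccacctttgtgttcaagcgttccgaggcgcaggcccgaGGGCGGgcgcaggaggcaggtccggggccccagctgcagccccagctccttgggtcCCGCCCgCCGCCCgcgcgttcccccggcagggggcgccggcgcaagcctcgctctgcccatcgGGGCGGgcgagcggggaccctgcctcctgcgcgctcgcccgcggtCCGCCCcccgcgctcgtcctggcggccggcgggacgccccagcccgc
FZD5, chr2:207769857-207770156, minus strand, in a region: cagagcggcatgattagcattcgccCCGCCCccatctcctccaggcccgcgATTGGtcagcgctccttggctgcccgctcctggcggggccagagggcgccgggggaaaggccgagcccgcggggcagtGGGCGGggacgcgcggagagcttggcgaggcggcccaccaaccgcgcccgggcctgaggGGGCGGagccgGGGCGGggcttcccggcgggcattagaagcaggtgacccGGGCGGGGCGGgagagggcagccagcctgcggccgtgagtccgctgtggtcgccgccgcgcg

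The windows of ROR1, ROR2, RYK and FZD5 held 29, 42, 43 and 38 CpG dinucleotides. Those of WNT5A held 21 at the start shown and 22 at its downstream start. The WNT5B windows held 10 and 7. Over all windows of protein-coding genes, the median was 27 CpG (quartiles 19 and 35) where the start lay in an accessible region. It was 5 (quartiles 2 and 12) where the start lay in none. The windows of WNT5A and WNT5B lay between these medians, and the receptors above the higher one. Those of WNT5A were within the quartiles of starts in a region, and those of WNT5B within the quartiles of starts in none. A GC box was present 6 times in FZD5, 5 times in ROR2, 2 times each in RYK and in the downstream WNT5B window, and once in the WNT5A window shown, with none in the other 3 windows. It occurred in 56.3% of all windows. ROR1 and FZD5 each held a CCAAT box, found in 34.7% of all windows. The downstream WNT5B window alone among the 8 held a TATA box, found in 9.47% of all windows. The AP-1 motif TGANTCA, the E box CACGTG and the TCF motif CTTTGAT had no match in the 8 windows on either strand, and occurred in 6.15%, 8.34% and 1.98% of all windows. In the 8 windows no match overlapped a match of a different motif, although 2 neighbouring GC boxes share a base in FZD5. A match is a string of letters and was not tested as a binding site.

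The 6 regions at listed starts differed in accessibility before any comparison of the groups. Per kb of region, the mean normalized read count per the authors' deposited table was highest at FZD5 (86.6) and RYK (80.6), followed by ROR1 (59.2), WNT5A (40.9), ROR2 (30.6) and the downstream start of WNT5A (24.1). Among 10867 regions that hold the start of a protein-coding gene, the median was 52.7 per kb, so the starts of FZD5, RYK and ROR1 lay above it and those of WNT5A and ROR2 below it. The order of neighbours has no spread between libraries to be set against, because the table gives none. By total reads the WNT5A region ranked higher, at the 89.0th percentile of these start regions, and it was 3874 bp wide. Regions of at least 2 kb made up 4 of the 76 member regions, against 2.35% of all nuclear regions, and lay at WNT5A, ROR2, FZD5 and FZD7.

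**Figure D1:**
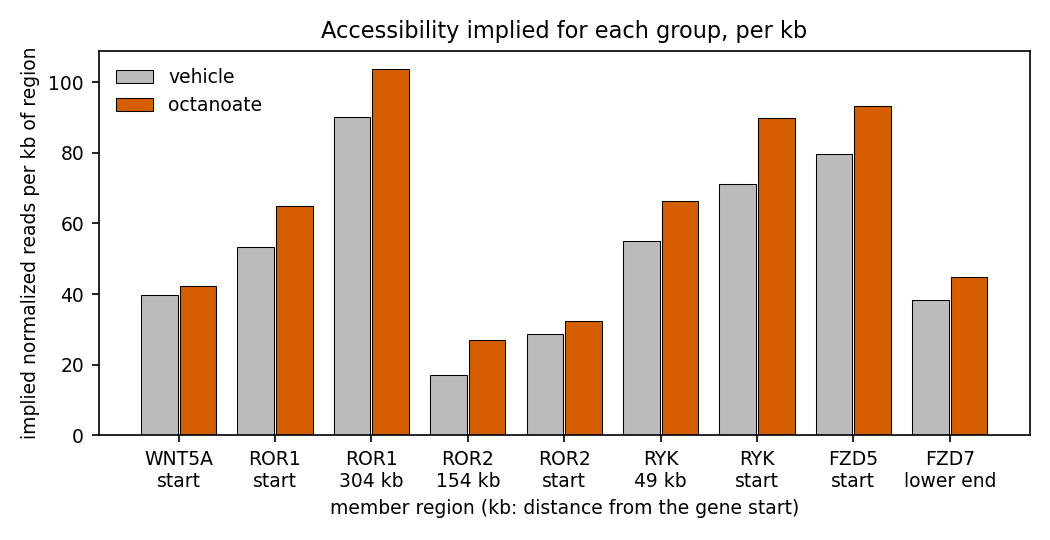
Normalized reads per kb of region (vertical axis, linear from 0) implied for vehicle (grey) and octanoate (orange) at the 8 tested member regions and the ROR2 start, with distances from the gene start in kb under the names. No error bars are drawn for lack of values by library. The bars for octanoate are the taller in each pair, and the widest relative gap is at the ROR2 region 154 kb from its start.

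No member region passed the authors' test. An adjusted p under 0.05 was reached by 0 of their 8 tested regions per the authors' deposited table (DESeq2), where 1.02% of all tested regions were called higher and 0% lower. The 8 adjusted p-values ran from 0.119 to 0.838. At an unadjusted p under 0.05, the 8 included 1 higher and 0 lower region per the authors' deposited table, against 14.8% higher and 0.107% lower among all tested regions. All 8 had a log2 fold change above 0, as did 85.7% of tested regions. Their median was 0.25 per the authors' deposited table, against 0.19 over all tested regions. A call at an adjusted p under 0.05 needed a log2 fold change of 0.53 at the FZD5 start, the most precise of the 8, and 0.89 at the ROR1 region 304 kb from its start, the least precise. Smaller changes could not have been called.

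**Figure D2:**
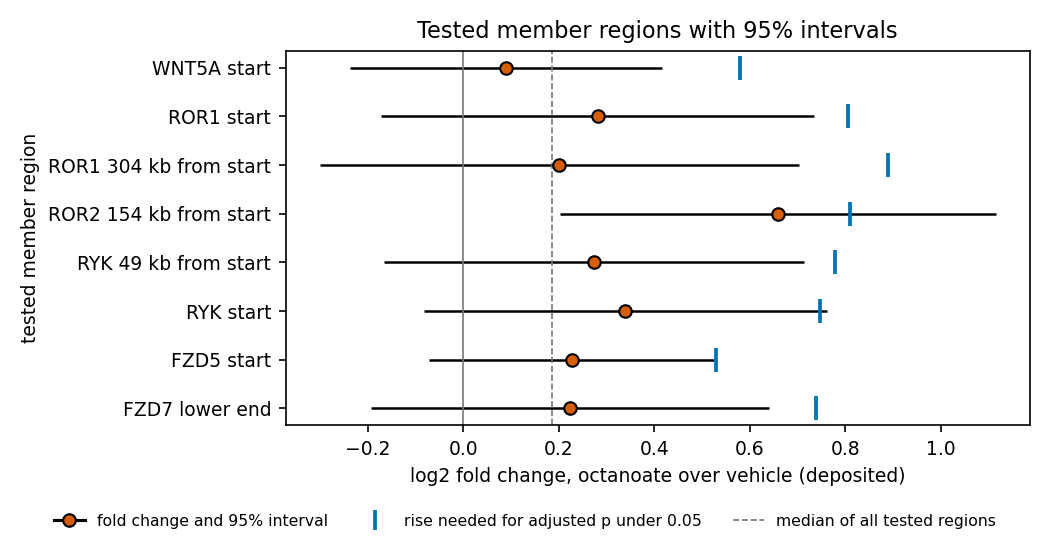
Deposited log2 fold changes of octanoate over vehicle (horizontal axis) for the 8 tested member regions (rows), with 95% intervals of 1.96 SE as lines, blue ticks at the rise needed for an adjusted p under 0.05, a solid line at 0 and a dashed line at the median of all tested regions, 0.19. All 8 points are above 0 and left of their tick, and the interval of the ROR2 region alone lies wholly above 0.

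Across all 76 member regions, 68 of them not tested because of a low mean, the median log2 fold change was 0.22 per the authors' deposited table, against 0.23 over all nuclear regions. Values above 0 were found in 53 of the 76, or 69.7%, against 72.1% of all nuclear regions. The 95% interval excluded 0 in 1 of the 76, while an unadjusted p under 0.05 occurred in 3.76% of all nuclear regions. After the median of the tested regions was subtracted, an unadjusted p under 0.05 was found in 2 of the 76, a ROR2 region above 0 and a ROR1 region below it, against 1.68% of all nuclear regions. The share above 0 was near that of the background. Once centred on the tested median, 40 of the 76 were above 0, beside 68404 of the 125985 nuclear regions. Single members ranged from -1.31 to 1.71 per the authors' deposited table, and these extremes were a ROR1 region with a mean of 5.22 reads and a RYK region with a mean of 4.02.

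**Figure D3:**
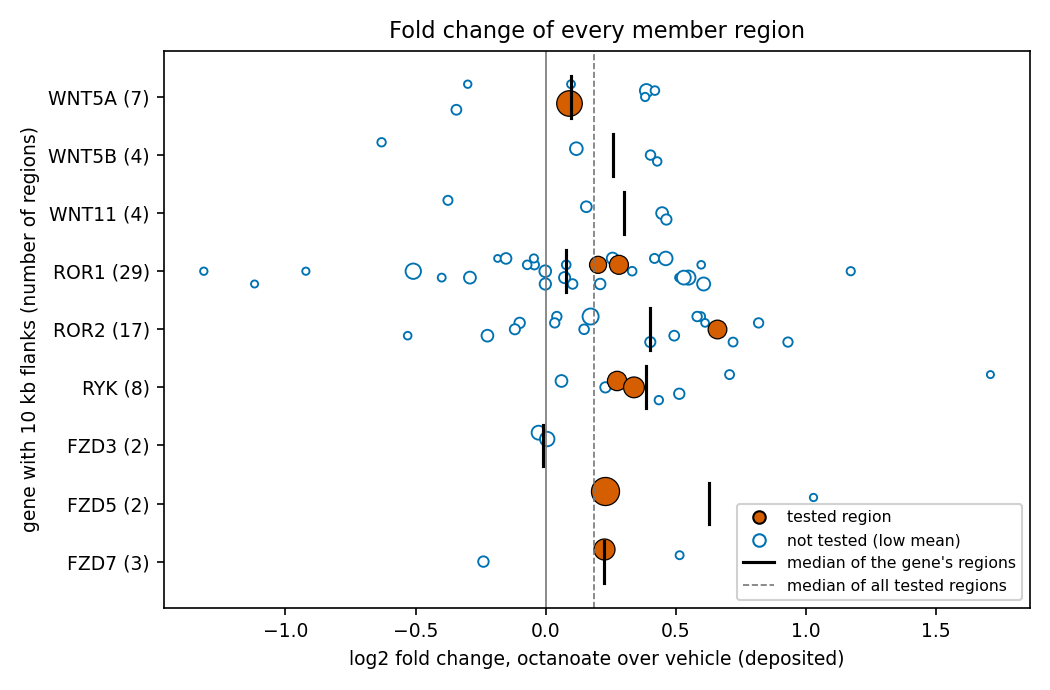
Deposited log2 fold changes (horizontal axis) of the 76 member regions by gene (rows, number of regions in brackets). Point area grows with the mean normalized read count, orange points are tested regions, white points are not tested, black bars are the medians of the genes and the dashed line is the median of all tested regions. The 8 orange points lie between 0.09 and 0.66, and the lowest and highest white points are small.

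WNT5A, the ligand that gives the pathway its name, had 7 regions. Its main start lay in a region of 3874 bp (chr3:55484806-55488679) that also holds the start of the antisense gene WNT5A-AS1, so accessibility at both starts is read together. The implied mean was 154 normalized reads with vehicle and 163 with octanoate. Its log2 fold change per the authors' deposited table was 0.09 (SE 0.17, adjusted p 0.838, DESeq2), with a 95% interval of -0.24 to 0.42. Once centred on the tested median, the value was -0.097. The deposited change is the smallest of the 8 tested ones. Its interval reaches neither the 0.58 that a call would have needed nor a fall of that size. At the downstream start (chr3:55481056-55481412), a region with a mean of 8.60 had a value of 0.38 (SE 0.72) per the authors' deposited table. The upper end of the WNT5A span, on its 5' side, lay in a region with a mean of 10.4 and a value of 0.42 (SE 0.69, unadjusted p 0.541 from the authors). The other region of more than 30 reads, within the gene 10.7 kb downstream of the main start, had a mean of 34.8 and a log2 fold change of 0.39 (SE 0.36, unadjusted p 0.278) per the authors' deposited table. A region 4.08 kb upstream of the main start had -0.34 (SE 0.52, unadjusted p 0.509) there. The remaining regions had means of 5.38 and 7.16. The 7 values thus lay on both sides of 0, 5 above and 2 below, each with an interval that includes 0, and 3 of the 7 were above 0 once centred on the tested median.

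WNT5B, the closest relative of WNT5A among the ligands, had 4 regions and none was tested. Its starts were 4.80 kb and 2.03 kb from the nearest region. The strongest WNT5B region (chr12:1631260-1631834), within the gene and downstream of both starts, had implied means of 31.2 with vehicle and 33.8 with octanoate. Its log2 fold change per the authors' deposited table was 0.12 (SE 0.36). The others per the authors' deposited table had -0.63 (SE 0.69) at 5.04 kb upstream of the upstream start, 0.40 (SE 0.55) within the gene, and 0.43 (SE 0.68) beyond its end, on means of 9.46, 14.3 and 9.79.

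WNT11, a ligand known for its part in cell movements of the embryo, also had 4 regions, with means of 12.4 to 27.2 reads and none tested. A group of 3 lay inside the span near its upper end and had log2 fold changes of 0.16 (SE 0.45), 0.45 (SE 0.40) and 0.46 (SE 0.50) per the authors' deposited table. The region over the lower end of the span (chr11:76186046-76186449) had -0.38 (SE 0.64) there. No ligand region other than the WNT5A start had enough reads to be tested.

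ROR1, a receptor tyrosine kinase-like protein of the cell surface, spans 407 kb and had 29 regions, the most of any member, 2 of them tested. Its start region (chr1:63773696-63775102) had implied means of 75.2 with vehicle and 91.4 with octanoate. The log2 fold change there was 0.28 (SE 0.23, adjusted p 0.594, DESeq2) per the authors' deposited table. The second tested region (chr1:64077200-64077874), 304 kb into the gene, had the highest density of the tested members, 97.0 normalized reads per kb. Its implied means were 60.9 and 70.0, and its value per the authors' deposited table was 0.20 (SE 0.26, adjusted p 0.747). The 95% intervals, -0.17 to 0.74 at the start and -0.30 to 0.70 at 304 kb, included 0.

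Among the ROR1 regions that were not tested, the smallest p-values belonged to regions that pointed in different directions. A region 195 kb into the gene (chr1:63968658-63970099) was implied to go from 60.8 normalized reads with vehicle to 42.7 with octanoate, a log2 fold change of -0.51 (SE 0.30, unadjusted p 0.0855) per the authors' deposited table. One 338 kb into the gene (chr1:64111806-64112749), which holds the start of the antisense gene ROR1-AS1, was implied to go from 27.4 to 41.7, a log2 fold change of 0.61 (SE 0.36, unadjusted p 0.0873). Another, at 266 kb (chr1:64039303-64039990), went from 34.4 to 50.3 by the same reckoning, with 0.55 (SE 0.32, unadjusted p 0.0901) per the authors' deposited table. Each of these intervals included 0 as deposited. After the median of the tested regions was subtracted, the region at 195 kb had -0.70 with an unadjusted p of 0.0187 recomputed from the authors' SE, and it has no adjusted p because it was not tested. Of the 29 ROR1 regions, 16 had values above 0 and 13 below, with a median of 0.08, and 13 of the 29 were above 0 once the tested median was subtracted. Over regions with a mean at or above the median of all regions, 12.2, the ROR1 median was 0.20. The 4 regions between 33.2 and 78.4 kb from the start, singled out after their values were seen, all had values below 0, from -1.12 to -0.18, on means of only 3.41 to 7.36 reads and with SE of 0.80 to 1.29.

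ROR2, the paralog of ROR1 and the best known co-receptor of WNT5A, spans 228 kb and had 17 regions. The strongest was a 3655 bp region inside the gene, 154 kb downstream of its start (chr9:91794896-91798550). Its implied mean was 62.6 normalized reads with vehicle and 98.8 with octanoate. The log2 fold change was 0.66 (SE 0.23, 95% interval 0.20 to 1.12, unadjusted p 0.00468, adjusted p 0.119, DESeq2) per the authors' deposited table. It was the 1 member region with a deposited unadjusted p under 0.05, and 2.06% of tested regions had a larger log2 fold change. It missed the threshold, which at its SE needed 0.81. After the median of the tested regions was subtracted, its value was 0.47, with an unadjusted p of 0.0427 and an adjusted p of 1. By that measure 3.16% of tested regions were higher at an unadjusted p under 0.05. Although wide, it was the least dense of the tested members, at 22.1 normalized reads per kb. It overlaps no other gene of the RefSeq table, and whether it lies in an exon or intron was not analysed here.

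The ROR2 start region (chr9:91948703-91950561) had a mean of 57.0, just under the lowest tested mean, with implied means of 53.6 for vehicle and 60.4 for octanoate. This corresponds to a log2 fold change of 0.17 (SE 0.28) per the authors' deposited table, or -0.014 once centred on the tested median. The internal region exceeded it by 0.49 with a combined SE of 0.36 (95% interval -0.23 to 1.2, errors taken as independent), an interval that includes 0. A region 141 kb from the start had 0.93 (SE 0.57, unadjusted p 0.105) on a mean of 13.5 per the authors' deposited table. Further values per the authors' deposited table were 0.82 (SE 0.57, unadjusted p 0.154) at 236 kb and 0.72 (SE 0.62, unadjusted p 0.243) at 209 kb, on means of 13.9 and 11.7. Of the 17 regions, 13 had values above 0 and 4 below, with a median of 0.40, where 72.1% of all nuclear regions were above 0. After the median of the tested regions was subtracted, 9 of the 17 were above 0. Over regions with a mean at or above the median of all regions, 12.2, this ROR2 median was 0.17, beside 0.20 for ROR1, so the order of the gene medians turned with this filter.

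**Figure D4:**
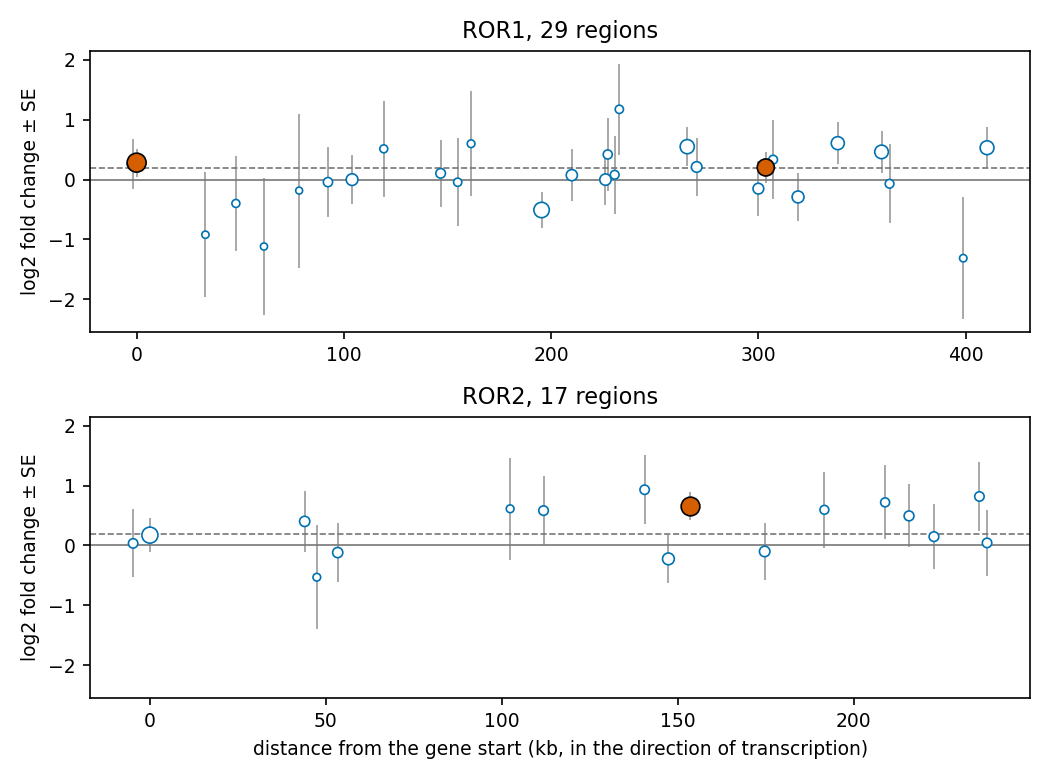
Deposited log2 fold changes with 1 SE (vertical axis) along ROR1 (top, 29 regions) and ROR2 (bottom, 17 regions) by distance from the gene start in kb (horizontal axis). Point area grows with the mean normalized read count, orange points are tested, and the dashed line is the median of all tested regions. The tested ROR1 points stand at 0.28 and 0.20, and the orange ROR2 point at 154 kb stands at 0.66.

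RYK, a receptor for WNT ligands with an inactive kinase domain, had 8 regions and 2 of them were tested. The start region (chr3:134249994-134251252) had implied means of 89.5 for vehicle and 113 for octanoate. The log2 fold change was 0.34 (SE 0.22, adjusted p 0.458, DESeq2) per the authors' deposited table. A region 49.0 kb into the gene (chr3:134201156-134202590) had implied means of 78.8 and 95.3 and a value of 0.27 (SE 0.22, adjusted p 0.591) per the authors' deposited table. The tested RYK regions had values on the same side of 0, the internal region minus the start being -0.06 with a combined SE of 0.31 (95% interval -0.67 to 0.54). The highest RYK value per the authors' deposited table, 1.71 (SE 1.17, unadjusted p 0.143), rested on a mean of 4.02 reads. A region 53.0 kb into the gene had 0.71 (SE 0.61, unadjusted p 0.25) per the authors' deposited table. All 8 RYK values were above 0, 7 of them also once centred on the tested median, and 0 of the 8 had an interval that excluded 0. Of all nuclear regions, 72.1% were above 0 as deposited, and 68404 of 125985 once centred.

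The Frizzled receptors, whose extracellular domains bind the ligands, had 7 regions among them. FZD5 had the strongest member region (chr2:207768378-207770602), which covers its start and had implied means of 178 with vehicle and 208 with octanoate. Its log2 fold change was 0.23 (SE 0.15, 95% interval -0.07 to 0.53, adjusted p 0.485, DESeq2) per the authors' deposited table. The other FZD5 region, 2.76 kb upstream, had 1.03 (SE 0.99) on a mean of 5.06 reads. FZD7 had a region of 2505 bp over the lower end of its span (chr2:202032775-202035279), with implied means of 96.1 and 112. Its value per the authors' deposited table was 0.22 (SE 0.21, adjusted p 0.647). The remaining FZD7 regions had 0.51 (SE 0.79) within the gene and -0.24 (SE 0.47) past its upper end, where LOC124906114 also lies, on means of 7.56 and 19.4.

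FZD3 had 2 regions in a span of 80.0 kb, neither of them tested. The region over the lower end of its span (chr8:28493797-28495015) had implied means of 44.3 with vehicle and 44.5 with octanoate. Its log2 fold change per the authors' deposited table was 0.01 (SE 0.32), or -0.18 once centred on the tested median. The other (chr8:28490073-28490940), which also overlaps the gene FBXO16, had implied means of 41.0 and 40.2 and -0.03 (SE 0.34) per the authors' deposited table. As deposited, these were the member values closest to 0 among regions with a mean above 40. Their 95% intervals were -0.63 to 0.64 at the lower end and -0.69 to 0.64 at the other.

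Other genes of the pathway were examined the same way. A list of 32 noncanonical partners (other Frizzled, Dishevelled and planar polarity proteins, small GTPases and downstream enzymes) had 245 regions that are not members, whose log2 fold changes had the median 0.20 per the authors' deposited table, with 71.0% of them above 0 against 72.1% of all nuclear regions. The 41 of these that were tested had the median 0.11, and 32 were above 0, against 0.19 and 85.7% over all tested regions. That difference was not tested. An adjusted p under 0.05 was reached by 0 of the 41, against 1.02% of all tested regions called higher and 0% lower. At an unadjusted p under 0.05, 3 of the 41 were higher and 0 lower, against 14.8% and 0.107% of all tested regions. Over all 245, tested or not, 7 were higher and 1 was lower by that measure. The 3 tested regions lay inside PRKCA, encoding a calcium-dependent protein kinase C (0.68, SE 0.26, adjusted p 0.156, DESeq2), NFATC2 (0.49, SE 0.21, adjusted p 0.246) and at a start of NFATC1 (0.39, SE 0.18, adjusted p 0.273) per the authors' deposited table. NFATC1 and NFATC2 are calcium-regulated transcription factors. A start of MAPK9, which encodes a JNK kinase, had 0.39 (SE 0.23, adjusted p 0.418) per the authors' deposited table.

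The beta-catenin branch, taken as 27 genes with 190 regions, showed the median value 0.07 per the authors' deposited table, and 59.5% of them were above 0, against 72.1% of all nuclear regions. The difference between these shares was not tested. The 21 tested had the median 0.10, and 13 were above 0, against 0.19 and 85.7% over all tested regions. That difference was not tested either. Among the 21, 0 reached an adjusted p under 0.05, against 1.02% of all tested regions called higher and 0% lower. At an unadjusted p under 0.05, 3 of the 21 were higher and 0 lower. Over all 190, tested or not, 5 were higher and 0 lower by that measure. The 3 tested ones were all regions of TCF7L2, which encodes a DNA-binding partner of beta-catenin, with log2 fold changes of 0.61 (SE 0.22, adjusted p 0.134, DESeq2), 0.56 (SE 0.23, adjusted p 0.207) and 0.38 (SE 0.16, adjusted p 0.228) per the authors' deposited table. Among tested regions, the next smallest p-value by gene was inside TCF7, a relative of TCF7L2 (0.44, SE 0.25, adjusted p 0.399). It was followed by a start of APC, which promotes beta-catenin breakdown (0.27, SE 0.18, adjusted p 0.486). Then came a region inside ZNRF3, which removes Frizzled receptors from the surface (0.31, SE 0.26, adjusted p 0.6), all per the authors' deposited table. In both lists the count of tested regions at an unadjusted p under 0.05 is to be read beside the background of 14.8% higher, and the count over all regions beside 3.76% in either direction.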

How the data were processed

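ATAC-seq of A375 cells was deposited as 1 table of octanoate against vehicle, 2 libraries a group, with 0 columns per library. Per the submitters' processing notes, the tools were Trim Galore, cutadapt, FastQC, Bowtie2, Picard, MACS2, featureCounts, DESeq2 and bedtools 2.29.1, and the build was hg38. Region merging and any shift for the Tn5 cut are not given in the sources used here. Per the file headers, the signal is a normalized read count averaged by the authors over libraries. The log2 fold change, its standard error and the Wald score are the authors', as are the p-values, all from DESeq2 as deposited. Recomputation showed that the adjusted p covers 11185 regions, those whose mean reached 63.8. It is listed as 1 in the other 114801, treated here as not tested.

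Starts were made 1-based. Gene spans came from RefSeq GRCh38.p14, and all 9 genes matched. Intervals are 1.96 SE, and implied group means assume that the deposited mean is the average of both group means. Adjustment and overlap code was tested on simulated data (Python 3.11.15, pandas 2.3.3, SciPy 1.17.1). Region, list and gene choices were made with earlier results of these data known. For each gene the text names any region at a listed start, the strongest region and up to 3 further regions by p. WNT11, FZD3 and FZD7 have no listed start, so the region over the lower end of the span is named, which may not be the start. For each list the text names up to 4 genes by p in a tested region. Outside this rule, and with values seen, it gives the other tested ROR1 region, 4 ROR1 regions of low signal, the members' lowest and highest values, and all 3 TCF7L2 regions. Alternatives varied the flank, adjustment, threshold, low-signal filter, gene weights and centring.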

Additional observations from a re-analysis of the deposited data

How the results depend on the processing

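The count of 0 member regions with an adjusted p under 0.05 was also 0 without flanks, with 50 kb flanks, with adjustment over all regions, at an adjusted p under 0.1 and after centring on the tested median. Among tested member regions, the count of 1 at an unadjusted p under 0.05 was 1 under each alternative run for it. Over tested and untested member regions together, a count added after the data were seen, it went from 1 to 2 after centring, through a ROR1 region below 0, and from 1 to 2 with 50 kb flanks, through a region beyond WNT5B. The members' median of 0.22 stayed between 0.19 and 0.27 under other flanks, filters and gene weights, including without ROR1, a setting chosen after the data were seen. It moved to 0.030 after centring on the tested median and to -0.013 with the all-region median subtracted instead, since a constant was taken away. Centring on the tested median also gave medians of -0.089 for WNT5A and -0.11 for ROR1, and start or end regions of -0.097 for WNT5A, -0.014 for ROR2 and -0.18 for FZD3. The FZD3 median became 0.0059 without flanks, which leaves 1 region, and the FZD7 median became -0.0076 over stronger regions. No paired analysis was possible because single libraries have no values here, and for the same reason no replicate was left out and no other scaling of reads was run. Over stronger regions the median went from 0.63 to 0.23 for FZD5, from 0.40 to 0.17 for ROR2 and from 0.08 to 0.20 for ROR1. Without flanks it went from 0.10 to 0.24 for WNT5A, from 0.22 to 0.37 for FZD7 and to 0.23 for FZD5. Low means limit the precision: 10.5% of the members were tested, against 8.88% of all regions, 20 of the 76 had a mean under 10, and the median SE was 0.54.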

Other observations

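The surroundings from 10 to 50 kb of the 9 genes held 41 further regions, of which 6 were tested and 0 had an adjusted p under 0.05 in the authors' deposited table (DESeq2). Their adjusted p-values ran from 0.578 to 0.89, and their median log2 fold change over all 41 was 0.17. These tested regions included the start of FBXL14 near WNT5B (0.25, SE 0.20) and that of CCNYL1 near FZD5 (0.20, SE 0.16).

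The smallest p among the 41 belonged to a region that was not tested because of its mean of 44.2 (chr12:1661527-1662387), beyond the WNT5B gene, and it was picked with its values in view. Its log2 fold change was 0.77 (SE 0.32, unadjusted p 0.0142) in the authors' deposited table. It overlaps no gene of the RefSeq table.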
